A study of Sus scrofa with 5 samples.

Results

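The 8 genes described here, followed across the cell classes of the pig aorta, are THBS1, THBS2, COMP, CD47, TNC, FN1, VCAN and POSTN. All but CD47, a cell surface receptor, encode proteins of the matricellular and provisional matrix of the vessel wall. The 8 genes were taken from a list of symbols that was chosen with earlier results of these data known. All 8 of 8 were found by symbol among the 35670 features of the count matrices. Nuclei of the abdominal aorta were sequenced from 5 castrated male Ossabaw pigs, a strain used as a model of metabolic disease, with 1 library per pig. The obese group held 3 pigs fed a high-fat, high-fructose (HF/HFru) diet and the control group 2 pigs fed chow. All pigs began the diet at 12 months of age, and its duration is given as 6 months with the samples and as 9 months in the study's design text. From each pig a piece of about 50 mm of snap-frozen vessel was dissociated, and nuclei stained with the DNA dye DRAQ5 were sorted, so RNA of the cytoplasm was mostly left behind. The comparison was of the level of each gene in each cell class between obese and control pigs. Where the nuclei of all classes are added together per library, fewer cells of a type and less RNA per cell cannot be told apart. Within a class the same holds for the clusters that make it up.

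Matricellular proteins are secreted into the extracellular matrix but act mainly by binding cell receptors, growth factors and other matrix proteins, and less as structural fibres. The thrombospondins THBS1 and THBS2 and their relative COMP (cartilage oligomeric matrix protein) belong to one family, and CD47 is a cell surface receptor for thrombospondin 1 that also restrains engulfment by macrophages. Fibronectin (FN1), the chondroitin sulphate proteoglycan versican (VCAN), tenascin C (TNC) and periostin (POSTN) build the loose provisional matrix that is laid down in artery walls after injury and in plaques.

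The 5 libraries held 21516249 to 47724416 UMIs (unique molecular identifiers, each standing for 1 captured RNA molecule), and 41986 nuclei were kept, with library medians of 1807.5 to 2681 UMIs per nucleus. Levels are given as CPM, which is a gene's UMIs scaled to a fixed total of all UMIs in a pig's nuclei of 1 class added together. Classes were named from marker genes and end in "-like". Any pair of libraries shared 9 to 26 barcodes. Of 25 clusters, 5 stayed unnamed, and cluster 11 carried genes of the kidney tubule (432, 37 and 243 nuclei in obese pigs 1 to 3, and 48 and 23 in control pigs 1 and 2), which the labelled tissue would not hold. The clusters that made up the smooth muscle-like class differed between groups: cluster 6 held 1920 and 330 nuclei in control pigs and 15, 12 and 33 in obese pigs, while cluster 5 held 1148, 950 and 700 in obese pigs and 25 and 65 in control pigs. The macrophage-like class differed as well: cluster 10, led by CYP7A1 and ATP6V0D2, held 11.2%, 54.7% and 13.6% of it in obese pigs and no nucleus in either control pig, whose macrophage-like nuclei all lay in cluster 8. Values of THBS1 and CD47 in cluster 8 alone are given below, and the part of cluster 10 in the other macrophage-like results was not tested. Unnamed cluster 20, led by heat shock genes, came largely from control pig 2 (242 of its 306 nuclei).

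The 8 genes were spread over the classes in different ways. Their levels by class are a description without a test, because the clusters were drawn from the same counts and 7 of the 8 genes (all but CD47) were among the genes used to draw them. Among the named classes, COMP and POSTN were highest in fibroblast-like nuclei. POSTN stood at 963 ± 253 CPM there (SD, n = 5 pigs) and at 22.7 to 62.0 CPM on average in the other 6 classes that could be tested. Unnamed clusters 3 and 12, outside these classes, averaged 231 and 367 CPM of POSTN. The orders of classes given here and below leave out the unnamed clusters. COMP averaged 258 ± 213 CPM in fibroblast-like nuclei, and the next class, pericyte-like nuclei, averaged 31.4 ± 60.8 CPM with most of that in 1 pig. The fibroblast-like class was above the next class in 5 of 5 pigs for COMP.

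**Figure D1:**
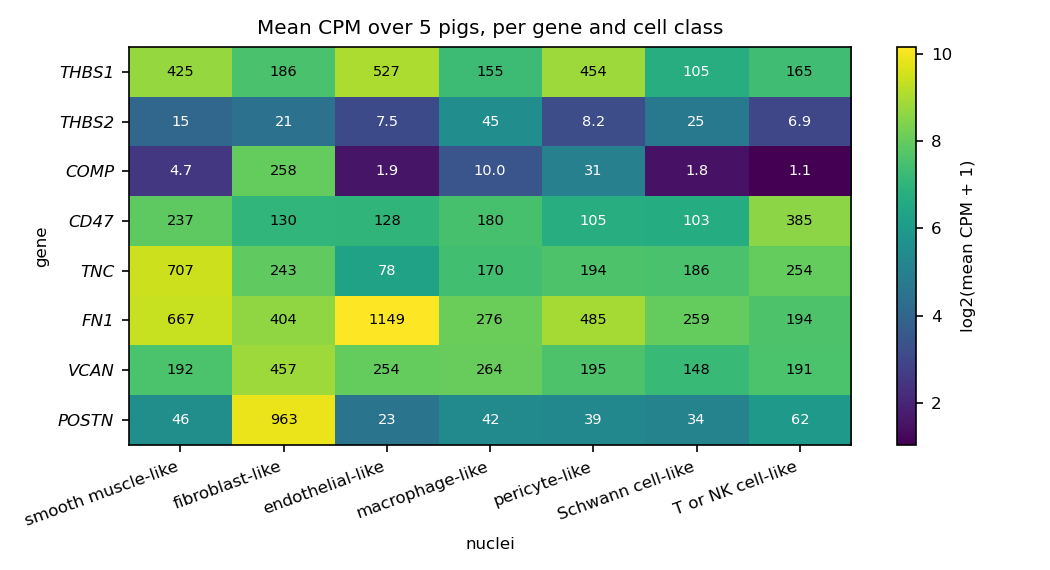
Mean CPM over 5 pigs for each gene (rows) in each cell class (columns), with colour showing log2(mean CPM + 1) and the printed number the mean CPM. COMP and POSTN are high in fibroblast-like nuclei (258 and 963 CPM), TNC in smooth muscle-like nuclei (707 CPM) and FN1 in endothelial-like nuclei (about 1150 CPM).

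Among the named classes TNC was highest in smooth muscle-like nuclei, at 707 ± 207 CPM. T or NK cell-like nuclei came next by mean (254 ± 339 CPM), where obese pig 3 alone held 857 CPM. TNC was lowest in endothelial-like nuclei, at 78.5 ± 21.3 CPM. Within the smooth muscle-like class, cluster 1, which is led by COL19A1, held 1440 CPM of TNC on average, and the other clusters of the class averaged from 146 CPM in cluster 9 to 796 CPM in cluster 5, with 322 CPM in cluster 0, 441 in cluster 2, 496 in cluster 4 and 693 in cluster 6.

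FN1 was highest in endothelial-like nuclei, at 1150 ± 382 CPM, and next in smooth muscle-like nuclei, at 667 ± 197 CPM. The endothelial-like class was the higher in 4 of 5 pigs, with obese pig 3 the exception. VCAN was highest in fibroblast-like nuclei, at 457 ± 110 CPM, and lay between 148 and 264 CPM on average in the other 6 classes. CD47 was highest in T or NK cell-like nuclei (385 ± 114 CPM) and then in smooth muscle-like nuclei (237 ± 32.0 CPM). T or NK cell-like nuclei were above smooth muscle-like nuclei in 5 of 5 pigs, while smooth muscle-like nuclei were above macrophage-like nuclei, the next class, in 3 of 5.

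THBS1 did not belong to 1 class. Its means were 527 ± 509 CPM in endothelial-like, 454 ± 237 in pericyte-like and 425 ± 366 in smooth muscle-like nuclei, and these 3 neighbours lay within each other's spread. The obese and control pigs lay far apart within each of them other than the pericyte-like class. THBS2 was low everywhere, from 6.89 ± 6.51 CPM in T or NK cell-like nuclei to 45.0 ± 23.3 CPM in macrophage-like nuclei, and the order of its upper classes changed from pig to pig.

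THBS1, whose product binds CD47 and can release TGF-beta from its latent form, was the gene of the 8 whose level rose with the diet. In smooth muscle-like nuclei it stood at 905, 406 and 667 CPM in obese pigs 1 to 3 and at 63.4 and 85.1 CPM in control pigs 1 and 2. Every obese pig was above every control pig, as for 17.6% of genes tested in this class, and the lowest obese level was several times the highest control level. The groups averaged 659 ± 250 CPM (SD, n = 3) and 74.2 ± 15.3 CPM (SD, n = 2), a log2 fold change of 3.10 (SE 0.387, 8.60-fold, edgeR quasi-likelihood test with Benjamini-Hochberg adjusted p = 0.0223). In this class 0.246% of the 17480 genes tested were called at an adjusted p under 0.05, with 0.212% called higher and 0.0343% lower, so calls were few and 1 of the 8 genes was among them.

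In fibroblast-like nuclei THBS1 stood at 292, 178 and 354 CPM in obese pigs and at 69.9 and 38.6 CPM in control pigs. Again the groups did not overlap, as for 13.2% of genes with the obese pigs above. The log2 fold change was 2.34 (SE 0.378, 5.06-fold, edgeR adjusted p = 0.0359), against a background of 0.288% of genes called in this class (0.242% higher, 0.046% lower). In endothelial-like nuclei the levels were 445, 616 and 1350 CPM against 145 and 80.5 CPM. Obese pig 3 was the highest and no control pig reached an obese one (19.6% of genes show this), and the log2 fold change was 2.95 (SE 0.566, 7.70-fold, edgeR adjusted p = 0.0168). Many more genes were called in endothelial-like nuclei, 8.03% of 6564, with 5.73% called higher and 2.3% lower.

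**Figure D2:**
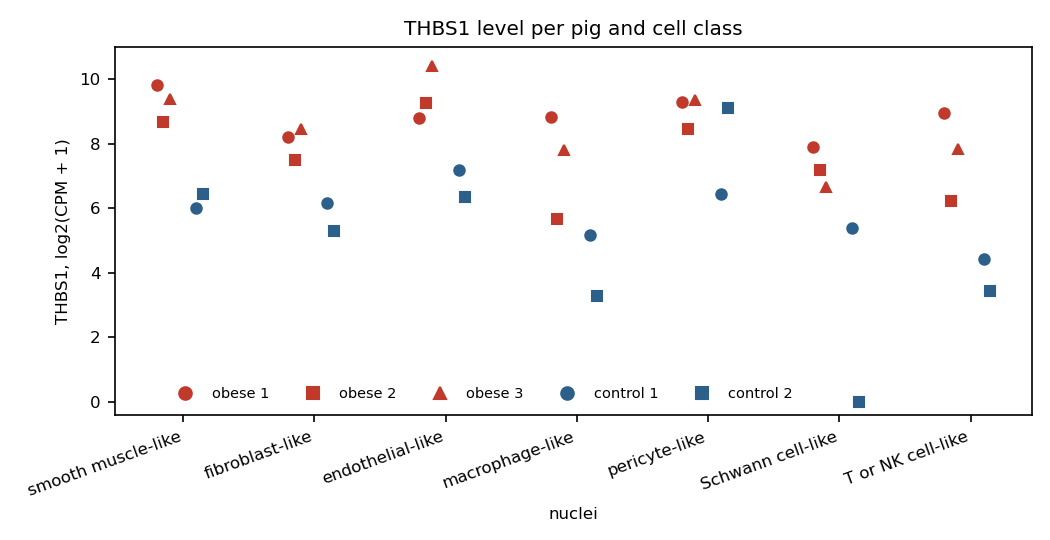
THBS1 level, as log2(CPM + 1), in each pig and cell class, with obese pigs in red and control pigs in blue and 1 marker shape per replicate number. The 3 obese pigs lie above both control pigs in every class drawn other than pericyte-like nuclei, where control pig 2 reached 547 CPM.

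In the other classes the log2 fold change was positive but did not pass the test. Macrophage-like nuclei gave 458, 49.7 and 222 CPM against 35.0 and 8.66 CPM, a log2 fold change of 3.56 (SE 1.13, edgeR adjusted p = 0.186), and the control levels rest on 5 and 1 UMIs. In cluster 8 alone, which leaves out cluster 10, the log2 fold change was 3.75 (SE 0.819, edgeR adjusted p = 0.0591, 1.54% of genes called). T or NK cell-like nuclei gave 491, 73.6 and 228 CPM against 20.7 and 9.85 CPM (log2 fold change 3.91, SE 0.826, edgeR adjusted p = 0.111). Schwann cell-like nuclei gave 239, 144 and 99.7 CPM against 40.4 and 0 CPM (log2 fold change 2.85, SE 0.744, edgeR adjusted p = 0.235). Pericyte-like nuclei were the exception in which the groups overlapped: the obese pigs held 633, 352 and 651 CPM, control pig 1 held 86.5 and control pig 2 held 547 CPM (log2 fold change 0.89, SE 0.612, edgeR adjusted p = 0.664). The share of all genes called was 0.998% in macrophage-like nuclei (0.695% higher, 0.303% lower) and 0.0% in each of the other 3. Over all nuclei together, THBS1 stood at 881, 368 and 777 CPM against 77.1 and 103 CPM (log2 fold change 2.87, SE 0.452, edgeR adjusted p = 0.0865), where 0.00499% of genes were called.

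More smooth muscle-like nuclei held THBS1 in obese pigs. At least 1 THBS1 UMI was found in 48.7%, 31.0% and 36.1% of smooth muscle-like nuclei from obese pigs and in 10.8% and 7.66% of those from control pigs. After thinning each nucleus to 1000 UMIs these shares were 35.1%, 19.3% and 25.2% against 4.67% and 4.08%, so the order of the groups was the same at equal depth. Smooth muscle-like nuclei with any THBS1 UMI held 5.47, 4.34 and 5.35 UMIs of it on average in obese pigs, and 2.12 and 4.01 in control pigs. Obese pig 2 was thus close to control pig 2. These averages were not taken at equal depth, and the part of the clusters that made up the class was not tested.

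Part of the THBS1 count in small classes can be free RNA from other nuclei, since droplets also capture RNA in solution. T or NK cell-like nuclei, which should hold little of it, had a THBS1 UMI in 39.1%, 12.3% and 31.2% of nuclei in obese pigs (median depth 1392, 1602 and 2115 UMIs) and in 6.20% and 2.44% in control pigs (2712 and 1998 UMIs). Smooth muscle-like nuclei had median depths of 1880.5, 2199 and 1768.5 UMIs in obese pigs and 2572 and 2416 in control pigs, and their shares were higher in all 5 pigs. The summed smooth muscle markers reached 36.7%, 15.1% and 26.0% of their smooth muscle level in T or NK cell-like nuclei of the obese pigs, and THBS1 reached 54.2%, 18.1% and 34.1% of its own. In the control pigs these were 14.4% and 22.9% for the markers and 32.7% and 11.6% for THBS1. In endothelial-like nuclei the same markers reached 12.5%, 23.5% and 10.1%, and THBS1 reached 49.1%, 152% and 202%. The control pigs had the markers there at 9.85% and 7.18%, below every obese pig, and THBS1 at 228% and 94.6%. In fibroblast-like nuclei the markers reached 28.1%, 30.4% and 22.6% and THBS1 32.3%, 43.9% and 53.0%, so obese pig 1 had THBS1 there at little more than the marker level. The control pigs had the markers at 25.4% and 30.5% and THBS1 at 110% and 45.4%. Kidney tubule-like cluster 11 held THBS1 at 656, 197 and 530 CPM in obese pigs and at 17.3 and 0 CPM in control pigs. The part of free RNA in the THBS1 result was not tested.

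The rise was also present within some single clusters. THBS1 was called in clusters 0, 1 and 4 of the smooth muscle-like class and in cluster 7 of the fibroblast-like class, which are 4 of the 16 clusters tested. In cluster 0 the levels were 464, 157 and 398 CPM against 36.5 and 28.1 CPM (log2 fold change 3.33, SE 0.430, edgeR adjusted p = 0.0054), where 0.265% of genes were called (0.237% higher, 0.0284% lower). In cluster 1, whose nuclei also held the most TNC, they were 1480, 580 and 982 CPM against 79.6 and 72.6 CPM (3.71, SE 0.387, edgeR adjusted p = 0.00132), where 0.513% were called (0.436% higher, 0.0774% lower). Cluster 4 gave 246, 144 and 370 CPM against 48.4 and 75.1 CPM (2.02, SE 0.378, edgeR adjusted p = 0.0322, 0.639% called; 0.0648 without obese pig 1 and 0.12 without obese pig 3), and cluster 7 gave 311, 181 and 375 CPM against 52.5 and 38.2 CPM (2.70, SE 0.374, edgeR adjusted p = 0.0146, 0.151% called; 0.144, 0.258 and 0.156 without obese pig 1, control pig 1 and control pig 2). Cluster 17, the other fibroblast-like cluster, lay near the adipocyte markers as well, which over the whole class summed to 1.07 to 2.41 CPM in obese pigs and to 18.2 to 23.5 CPM in control pigs. There the THBS1 levels were 233, 174 and 148 CPM against 216 and 44.1 CPM and overlapped. Clusters 2 and 5, which few control nuclei entered, gave log2 fold changes of 1.29 (edgeR adjusted p = 0.573) and 1.22 (edgeR adjusted p = 0.452). Cluster 5 held 13302 of the 30501 THBS1 UMIs of obese smooth muscle-like nuclei. Its groups overlapped, at 935, 307 and 846 CPM against 274 and 377 CPM. Smooth muscle-like cluster 9 gave 2.10 (SE 0.665, edgeR adjusted p = 0.188). In the endothelial-like clusters the values were 2.50 in cluster 14 (edgeR adjusted p = 0.0901) and 3.33 in cluster 15 (edgeR adjusted p = 0.0826).

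With 2 control pigs, single libraries decided these calls. For THBS1 in smooth muscle-like nuclei the edgeR adjusted p was 0.103 without obese pig 1, 0.225 without control pig 1 and 0.0727 without control pig 2, with log2 fold changes from 2.81 to 3.4 over all 5 omissions. In fibroblast-like nuclei it was 0.204, 0.274 and 0.261 without the same pigs, with log2 fold changes from 2.03 to 2.82, and in endothelial-like nuclei it was 0.0964 without control pig 2, with log2 fold changes from 2.24 to 3.4.

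Genes of the immediate early and heat shock response, which also change with how tissue is handled, summed higher in the classes in which THBS1 was called. The summed level of the 22 measured genes of this list (of 23) in smooth muscle-like nuclei was 2250 to 4570 CPM in the obese group and 866 to 1880 CPM in the control group. It was 3620 to 5470 against 1080 to 1630 CPM in fibroblast-like nuclei and 3760 to 5490 against 1470 to 3210 CPM in endothelial-like nuclei. In these classes in turn, 11, 16 and 14 of the genes were higher in every obese pig, and 1, 0 and 0 were lower. The sums of the groups overlapped in macrophage-like, pericyte-like, Schwann cell-like and T or NK cell-like nuclei. Unnamed cluster 20, led by heat shock genes and largely from control pig 2 (242 of its 306 nuclei), lay outside all of these sums. Markers of macrophages in smooth muscle-like nuclei summed to 11.7 to 77.5 CPM in obese pigs and to 5.82 to 8.51 CPM in control pigs, with 10 of 12 markers higher in every obese pig. The part of either list in the THBS1 result was not tested.

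The stretch of 250 bases before the RefSeq start of THBS1 (Sscrofa11.1, chr1:131746099-131746348, minus strand, gene at chr1:131728781-131746098) is shown because it is the start region of the gene that rose, next to that of its paralog THBS2 (chr1:854223-854472, plus strand), which did not pass the test in smooth muscle-like, fibroblast-like or macrophage-like nuclei and was too low to be tested in the other 4 classes. Each runs 5′ to 3′ towards the gene, and capitals mark matches on either strand to 8 motifs: TGANTCA (AP-1), TGACGTCA (CRE), CACGTG (E-box), GGGCGG (GC box), TATAAA, GCGNGGGCG (EGR), GGAATG (TEAD) and the CArG box.
THBS1: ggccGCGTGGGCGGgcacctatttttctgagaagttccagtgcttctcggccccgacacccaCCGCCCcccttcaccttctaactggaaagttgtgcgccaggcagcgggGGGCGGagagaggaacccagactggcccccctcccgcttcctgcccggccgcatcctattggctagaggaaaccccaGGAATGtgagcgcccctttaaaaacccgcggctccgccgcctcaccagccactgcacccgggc
THBS2: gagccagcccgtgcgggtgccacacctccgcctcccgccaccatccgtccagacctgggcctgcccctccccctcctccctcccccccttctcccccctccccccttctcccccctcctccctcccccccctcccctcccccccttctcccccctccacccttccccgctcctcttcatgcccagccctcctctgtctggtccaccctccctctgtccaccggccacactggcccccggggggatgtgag
The THBS1 stretch held 3 matches to GGGCGG, 1 to GCGNGGGCG, which overlaps the first of them, and 1 to GGAATG. Among 19531 protein-coding genes, 45.9%, 9.5% and 10.3% had a match to these motifs in the same stretch. The THBS2 stretch, at 74.0% G and C, matched none of the 8 motifs. Such matches describe the letters only, and the annotated starts were not checked against these libraries.

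None of the other 7 genes passed the test in any class in which it was tested. In smooth muscle-like nuclei their edgeR adjusted p ran from 0.395 to 0.918, and in fibroblast-like nuclei from 0.409 to 0.869. Endothelial-like nuclei gave 0.216 to 0.975 over 5 further genes, with THBS2 and COMP below the count filter, and macrophage-like nuclei gave 0.291 to 0.872 by edgeR's test over 6 further genes, with COMP below it. Over all 8 genes the median log2 fold change in smooth muscle-like nuclei was 0.01, beside 0.01 over all genes tested (0.010 and 0.007 before rounding), and in fibroblast-like nuclei it was 0.37 beside 0.01 (0.005).

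**Figure D3:**
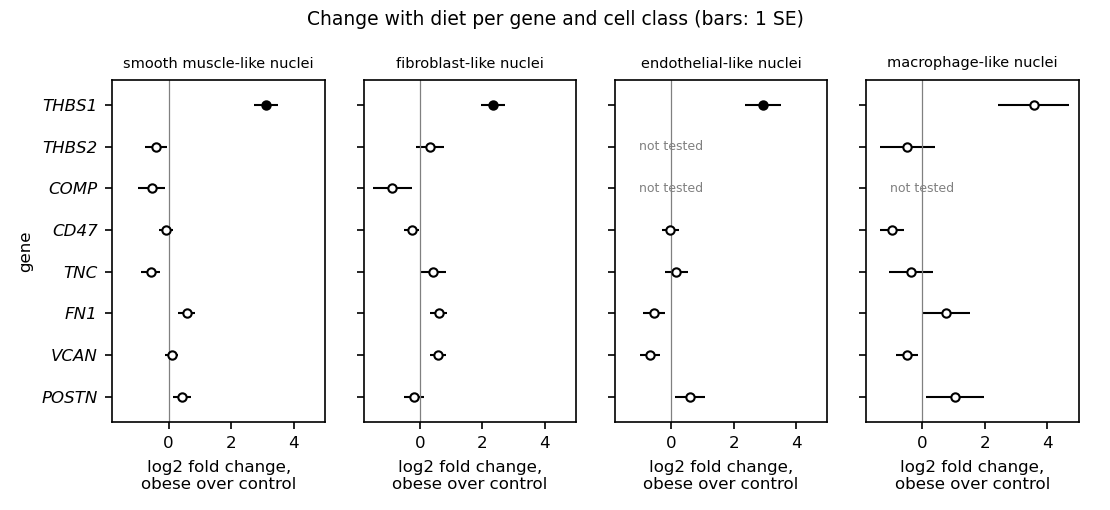
Log2 fold change of obese over control pigs for each gene in the 4 main classes, with bars of 1 SE and filled points for an adjusted p under 0.05. THBS1 lies at 3.10, 2.34, 2.95 and 3.56, filled in the first 3 classes, and the other genes lie between -0.97 and 1.05.

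CD47, the receptor, did not pass the test in any class. Its smooth muscle-like level stood at 200, 247 and 258 CPM in obese pigs and at 272 and 206 CPM in control pigs, with overlapping groups (log2 fold change -0.08, SE 0.219, edgeR adjusted p = 0.918). In macrophage-like nuclei the obese pigs, at 153, 112 and 104 CPM, all lay below the control pigs, at 322 and 208 CPM. That log2 fold change was -0.97 (SE 0.390, edgeR adjusted p = 0.291), and 17.5% of genes tested in this class had every obese pig below every control pig. The macrophage-like class held 59 and 37 control nuclei, so its control levels rest on 70 CD47 UMIs together.

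THBS2 in smooth muscle-like nuclei stood at 13, 9.29 and 19.2 CPM in obese pigs and 20.3 and 15.6 CPM in control pigs, so the groups overlapped (log2 fold change -0.41, SE 0.352, edgeR adjusted p = 0.656). The sign turned (0.09) when unnamed clusters 3, 12 and 20 were added to the class. COMP in fibroblast-like nuclei stood at 160, 92.2 and 319 CPM in obese pigs and at 115 and 604 CPM in control pigs. Control pig 2 was far above the rest, the groups overlapped, and the log2 fold change was -0.88 (SE 0.612, edgeR adjusted p = 0.638), or 0.80 without that pig. With the replicate number as a block it was -1.15 and passed the test (edgeR adjusted p = 0.0355), although the labels do not say whether the numbers pair the pigs.

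COMP and POSTN lay in the same fibroblast-like cluster. Cluster 7, which is led by RALYL, STK32B, GPR39 and COMP itself, held 53.8% to 78.9% of all COMP UMIs of a pig and 26.9% to 48.9% of all POSTN UMIs, on 2.35% to 4.64% of a pig's UMIs. COMP averaged 298 CPM in cluster 7 and 12.6 CPM in fibroblast-like cluster 17, and POSTN averaged 1160 and 38.2 CPM. POSTN in fibroblast-like nuclei was 751, 678 and 1270 CPM in obese pigs and 1150 and 964 CPM in control pigs, and the groups overlapped. Its log2 fold change was -0.20 (SE 0.315, edgeR adjusted p = 0.869) in the class and 0.03 within cluster 7 alone (edgeR adjusted p = 0.982). The 250 bases before the RefSeq starts of COMP (chr2:59061159-59061408, plus strand) and POSTN (chr11:13258974-13259223, minus strand) are given since the pair shared this cluster, with the same 8 motifs in capitals.
COMP: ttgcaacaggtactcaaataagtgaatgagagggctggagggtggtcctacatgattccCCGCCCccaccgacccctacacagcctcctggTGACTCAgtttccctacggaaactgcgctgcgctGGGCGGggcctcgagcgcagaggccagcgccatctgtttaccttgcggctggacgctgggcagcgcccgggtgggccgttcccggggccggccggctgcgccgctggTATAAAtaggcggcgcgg
POSTN: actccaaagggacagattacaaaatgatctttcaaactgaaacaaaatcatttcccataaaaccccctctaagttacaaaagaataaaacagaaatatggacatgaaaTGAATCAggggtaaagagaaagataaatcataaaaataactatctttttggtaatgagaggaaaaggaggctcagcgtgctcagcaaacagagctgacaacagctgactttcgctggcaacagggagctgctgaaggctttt
Each of these stretches held 1 match to TGANTCA, which 5.25% of the 19531 genes have. That of COMP also held 2 matches to GGGCGG and 1 to TATAAA, which 9.76% of genes have.

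TNC and FN1 had values of opposite sign in smooth muscle-like nuclei, and neither passed the test. TNC stood at 544, 432 and 822 CPM in obese pigs and 911 and 825 CPM in control pigs (log2 fold change -0.57, SE 0.297, edgeR adjusted p = 0.442). Every obese pig was below both control pigs, although obese pig 3 nearly reached control pig 2, and 12.0% of genes in this class showed that order. FN1 stood at 858, 569 and 899 CPM in obese pigs and 542 and 468 CPM in control pigs (log2 fold change 0.58, SE 0.269, edgeR adjusted p = 0.395). Here every obese pig was above both control pigs, as for 17.6% of genes. VCAN stood at 178, 250 and 174 CPM against 169 and 188 CPM, with overlap (log2 fold change 0.10, SE 0.211, edgeR adjusted p = 0.884), and POSTN at 33.1, 65.1 and 58.5 CPM against 34.7 and 39.5 CPM (0.43, SE 0.288, edgeR adjusted p = 0.562).

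In fibroblast-like nuclei FN1 and VCAN did not pass either, with each obese pig above each control pig, the order already given as that of 13.2% of genes. FN1 stood at 355, 467 and 574 CPM against 345 and 281 CPM (log2 fold change 0.60, SE 0.274, edgeR adjusted p = 0.433). VCAN stood at 429, 547 and 597 CPM against 351 and 363 CPM (0.57, SE 0.249, edgeR adjusted p = 0.409). TNC overlapped, at 185, 169 and 447 CPM against 185 and 228 CPM (0.41, SE 0.411, edgeR adjusted p = 0.758).

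In endothelial-like nuclei the values of FN1 and VCAN were negative, and neither passed the test. FN1 stood at 1300, 1000 and 557 CPM in obese pigs and at 1360 and 1530 CPM in control pigs (log2 fold change -0.54, SE 0.359, edgeR adjusted p = 0.377). VCAN stood at 200, 277 and 124 CPM against 296 and 375 CPM (-0.68, SE 0.321, edgeR adjusted p = 0.216). In both cases every obese pig was below both control pigs, as for 25.2% of genes in this class. Sums of markers of other cells moved with the groups in endothelial-like nuclei: fibroblast markers summed to 333 to 410 CPM in obese and 873 to 928 CPM in control pigs, and smooth muscle markers to 1150 to 2030 against 678 to 927 CPM. Of the 11 fibroblast markers measured, 3 were lower in every obese pig and 1 was higher, beside 25.2% and 19.6% of all genes tested in this class. FBLN1, whose levels are given below, is among the 11 and made up much of their sum. Of the 10 smooth muscle markers, 5 were higher in every obese pig and 1 was lower. Their part in the THBS1, FN1, VCAN and list results of this class was not tested.

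For FN1 the diet effect differed between classes. The difference of its log2 fold change, endothelial-like minus smooth muscle-like, was -1.34 (SE 0.366, edgeR adjusted p = 0.0106) with the pig as a block. In that comparison 656 of 16809 genes (3.9%) were called, 311 with a positive and 345 with a negative difference, or 451 and 229 with DESeq2's size factors in the same fit. That scaling moved the median of all genes from -0.16 to 0.03 and the FN1 difference to -1.14 (edgeR adjusted p = 0.0422). The call was lost without obese pig 3 (-0.79, edgeR adjusted p = 0.302), without control pig 1 (-1.42, 0.138) and without control pig 2 (-1.12, 0.559). VCAN gave -1.02 (SE 0.359, edgeR adjusted p = 0.0882), and THBS1 gave -0.44 (SE 0.371, edgeR adjusted p = 0.645), so no difference of the THBS1 effect was called between these classes. None of the 8 genes was called between smooth muscle-like and fibroblast-like nuclei (0.0308% of genes called), between smooth muscle-like and macrophage-like nuclei (2.14%), or between fibroblast-like and endothelial-like nuclei (1.53%). The edgeR adjusted p of THBS1 in these 3 was 0.635, 0.903 and 0.685, and TNC had the lowest between smooth muscle-like and fibroblast-like nuclei (difference 0.91, SE 0.239, edgeR adjusted p = 0.242).

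The make-up of the endothelial-like class also differed between the groups. Cluster 15, led by genes that include NOS3, BMX and EDN1, held 64.8% and 80.5% of endothelial-like nuclei in control pigs and 30.3%, 24.7% and 26.4% in obese pigs. FN1 averaged 1840 CPM in cluster 15 and 232 CPM in cluster 14, the other cluster of the class. Within cluster 15 FN1 stood at 2220, 2840 and 957 CPM in obese pigs and 1530 and 1630 CPM in control pigs, and within cluster 14 at 252, 255 and 332 CPM against 208 and 115 CPM. The log2 fold changes within clusters 15 and 14 were positive, 0.44 (SE 0.475, edgeR adjusted p = 0.694, 0.864% of genes called and 0.194% lower) and 0.77 (SE 0.404, edgeR adjusted p = 0.542, 0.0% called), while that of the class was negative. Neither passed the test. Cluster 15 held 60, 56 and 32 obese nuclei, and the cluster 14 level of control pig 2 rests on 9 UMIs from 38 nuclei. The part of this make-up in the FN1 result was not tested.

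**Figure D4:**
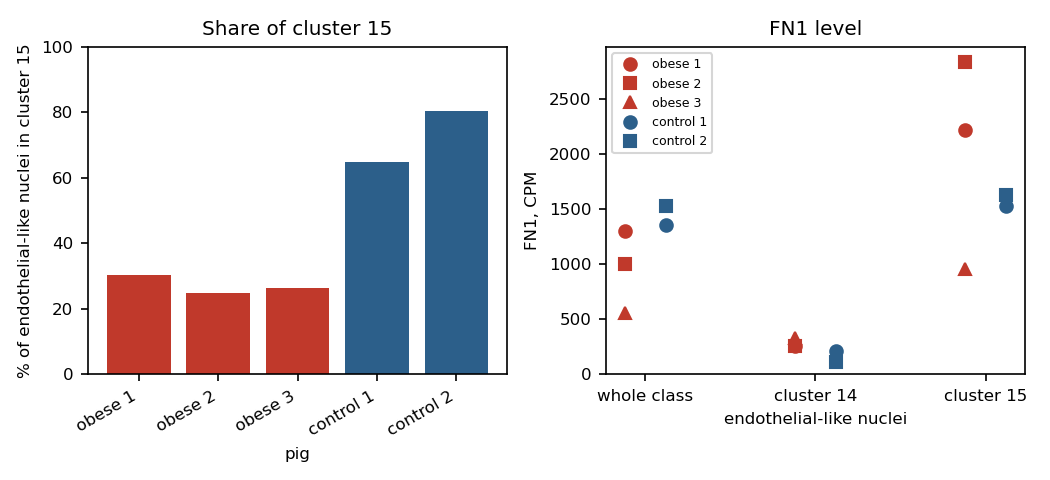
Left, the percentage of each pig's endothelial-like nuclei that lay in cluster 15 (bars, red obese, blue control). Right, FN1 CPM per pig in the whole class, in cluster 14 and in cluster 15: every obese pig is below both control pigs in the class (1300 CPM at most against at least 1360 CPM), above both in cluster 14, and on either side of them in cluster 15.

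Unnamed cluster 3 was a large source of most of these transcripts in obese pigs, though not of COMP. It was led by ANKRD1, GPRC5A and INHBA, reached no marker list, and held 13%, 6.81% and 22.0% of the nuclei of obese pigs but 0.271% and 0.828% of those of control pigs (30 and 45 nuclei). Averaged over pigs it held 2060 CPM of FN1, 860 CPM of THBS1, 897 CPM of TNC and 596 CPM of VCAN. It contained 40.2%, 26.6% and 58.6% of all FN1 UMIs of the obese pigs, on 18.8%, 9.02% and 28.3% of their UMIs. For THBS1 the shares were 26.6%, 21.1% and 40.5%, and for VCAN 38.3%, 21.4% and 46.1%. For POSTN they were 34.0%, 24.7% and 37.4%, beside 33.6%, 26.9% and 30.7% in fibroblast-like cluster 7. COMP, at 7.64%, 1.76% and 6.8%, and CD47, at 17.0%, 8.82% and 19.9%, lay below the share of all UMIs in each obese pig. In control pigs cluster 3 contained 0.669% and 4.17% of FN1 UMIs. Within cluster 3 itself no gene of the 8 was called (0.0514% of genes called): FN1 gave a log2 fold change of 0.71 (SE 0.444, edgeR adjusted p = 0.544) and THBS1 1.23 (SE 0.387, edgeR adjusted p = 0.271), with THBS1 at 1250, 860 and 1110 CPM against 535 and 547 CPM. The genes used to draw the clusters included FN1 and THBS1, so these levels are a description.

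**Figure D5:**
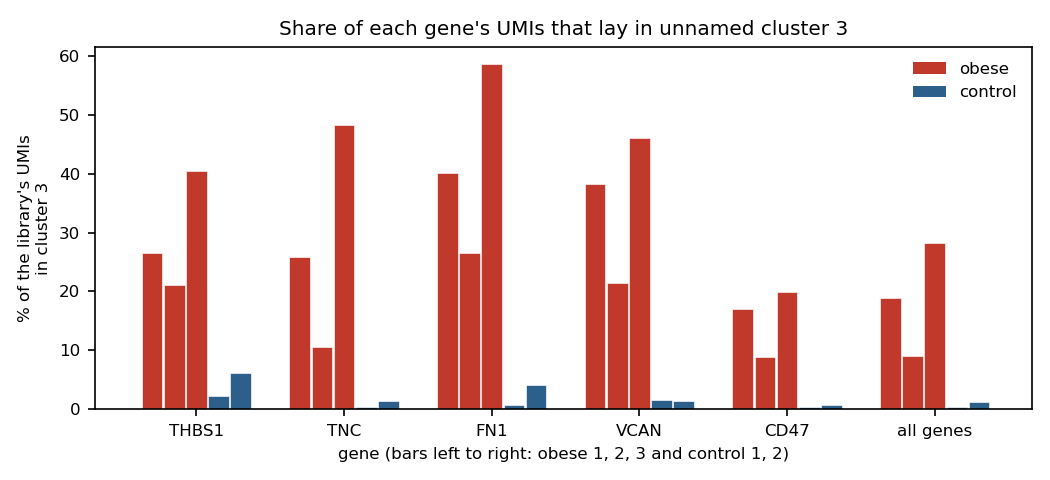
Percentage of each pig's UMIs of THBS1, TNC, FN1, VCAN, CD47 and of all genes that lay in unnamed cluster 3, with 1 bar per pig (red obese, blue control). FN1 shows 40.2%, 26.6% and 58.6% in obese pigs, above the 18.8%, 9.02% and 28.3% for all genes.

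Calls among the partners of these proteins were mostly in endothelial-like nuclei, the class in which 8.03% of all genes were called. The lists of genes given from here on were chosen with earlier results of these data known, so their counts and medians are a description. Among integrins and other receptors of the matrix (21 listed, 20 measured), 0 of 19 tested passed in smooth muscle-like nuclei and 0 of 15 in fibroblast-like nuclei. In endothelial-like nuclei 2 of 15 were higher and none lower: ITGAV, the alpha subunit of vitronectin and fibronectin receptors, at 133, 189 and 215 CPM against 59.5 and 64.3 CPM (log2 fold change 1.61, SE 0.338, edgeR adjusted p = 0.0227), and TLR4, an innate immune receptor, at 15.4, 30.5 and 29.5 CPM against 5.51 and 6.51 CPM (2.12, SE 0.545, edgeR adjusted p = 0.0439). In macrophage-like nuclei 1 of 15 was higher, the heparan sulphate proteoglycan syndecan 2 (SDC2), at 2310, 2360 and 3350 CPM against 343 and 147 CPM (3.57, SE 0.524, edgeR adjusted p = 0.0288). No gene at all was called in macrophage-like nuclei without obese pig 3, without control pig 1 or without control pig 2, where SDC2 had an edgeR adjusted p of 0.12, 0.263 and 0.305. The most abundant receptor in smooth muscle-like nuclei, ITGA8, stood at 1210, 2250 and 1480 CPM against 3430 and 1470 CPM and did not pass (-0.63, edgeR adjusted p = 0.45), nor did ITGB1, the shared beta subunit (0.41, edgeR adjusted p = 0.645). In fibroblast-like nuclei ITGA8 gave 0.62 (edgeR adjusted p = 0.441) and ITGB5 -1.01 (edgeR adjusted p = 0.21), with ITGB5 at 559, 405 and 732 CPM against 1050 and 1280 CPM.

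Thrombospondin relatives and receptors (9 listed, 6 measured) had no gene called in any of the 4 main classes, over 6, 6, 4 and 4 genes tested. CACNA2D1, a calcium channel subunit that binds thrombospondins, gave -0.37 in smooth muscle-like nuclei (edgeR adjusted p = 0.464) and -0.24 in fibroblast-like nuclei (edgeR adjusted p = 0.765). STIM1, a calcium sensor of the endoplasmic reticulum, gave -0.03 and 0.07 in the same classes (edgeR adjusted p = 0.965 and 0.946).

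Of the proteases and inhibitors that act on these proteins, 4 of 9 tested were higher in endothelial-like nuclei and none lower, while 0 of 14, 0 of 9 and 0 of 6 passed in smooth muscle-like, fibroblast-like and macrophage-like nuclei. ADAMTS9, ADAMTS5 and ADAMTS4, secreted proteases that cut versican and related proteoglycans, rose by 2.37 (SE 0.367, edgeR adjusted p = 0.00882), 3.2 (SE 0.501, edgeR adjusted p = 0.00884) and 3.31 (SE 0.825, edgeR adjusted p = 0.0397) on the log2 scale. ADAMTS9 stood at 995, 1080 and 876 CPM against 266 and 133 CPM, a gap far wider than the spread within either group. TIMP1, an inhibitor of matrix metalloproteinases, rose by 3.54 (SE 0.856, edgeR adjusted p = 0.0366). The median log2 fold change of the list in endothelial-like nuclei was 1.62 beside -0.03 over all genes. The list was chosen with earlier results of these data known, so this gap is a description and not a test of the list. In smooth muscle-like nuclei the 2 most abundant members, ADAMTS9 and ADAMTS12, gave 0.45 (edgeR adjusted p = 0.549) and -0.38 (edgeR adjusted p = 0.528), and in fibroblast-like nuclei TIMP3 and ADAMTS12 gave 0.15 and 0.10 (edgeR adjusted p = 0.9 and 0.955).

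Partners of versican and fibronectin (21 listed, 20 measured) had 2 of 8 tested genes higher and 1 lower in endothelial-like nuclei, and none called in smooth muscle-like (13 tested), fibroblast-like (10) or macrophage-like nuclei (6). The genes that rose, XYLT1 (2.09, SE 0.391, edgeR adjusted p = 0.0151) and CHST11 (1.57, SE 0.355, edgeR adjusted p = 0.0289), encode enzymes that start and sulphate chondroitin sulphate chains. Fibulin 1 (FBLN1) fell, at 248, 233 and 209 CPM against 549 and 654 CPM (-1.31, SE 0.269, edgeR adjusted p = 0.0212). FBLN1 is also 1 of the fibroblast markers summed above for this class, so its fall and that of the sum are not separate results. The lower share of cluster 15 in obese pigs stands beside every endothelial-like result given here, and its part in them was not tested. The most abundant of the list in smooth muscle-like nuclei, EFEMP1 and FBN1, gave -0.34 and -0.21 (edgeR adjusted p = 0.521 and 0.714), and FBN1 and XYLT1 in fibroblast-like nuclei gave -0.18 and -0.63 (edgeR adjusted p = 0.824 and 0.545).

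Among 25 other matricellular genes, SPP1, which encodes osteopontin, was called higher in all 4 main classes. In macrophage-like nuclei it stood at 682, 894 and 1370 CPM in obese pigs and had 0 UMIs in the control pigs, which makes it at least 75.6-fold higher against a floor of 3 counts over the control group (edgeR adjusted p = 0.027). In smooth muscle-like nuclei it stood at 17.8, 45.5 and 5.35 CPM with 3 control UMIs in all, a ratio of 382 (95% interval 130 to 1850, counting error only, edgeR adjusted p = 0.0295). It was at least 36.3-fold higher in fibroblast-like nuclei (edgeR adjusted p = 0.0359) and at least 72.7-fold higher in endothelial-like nuclei (edgeR adjusted p = 0.0124), against the same floor. In smooth muscle-like and fibroblast-like nuclei the SPP1 call was lost without obese pig 1 (edgeR adjusted p = 0.112 and 0.204), control pig 1 (0.238 and 0.288) or control pig 2 (0.117 and 0.0901). In these 3 classes the obese pigs came in the same order by SPP1 as by summed macrophage markers, with obese pig 2 highest and obese pig 3 lowest (77.5 and 11.7 CPM of the markers in smooth muscle-like nuclei), and the part of macrophage RNA in the SPP1 result was not tested. Of the rest, LGALS3 (galectin 3) rose in macrophage-like nuclei, from 1 control UMI to 6081 obese UMIs (ratio 194, 95% interval 34.8 to 7660, edgeR adjusted p = 0.027). The calls of LGALS3 and SPP1 in this class were lost, like that of SDC2, without obese pig 3 (edgeR adjusted p = 0.12 for both) or either control pig (0.172 to 0.267). CCN2, a target of TGF-beta signalling, fell in endothelial-like nuclei from 354 and 470 CPM to 84.7, 72.5 and 165 CPM (-1.86, SE 0.406, edgeR adjusted p = 0.0255), a call lost without any 1 of 4 pigs (0.0506 to 0.138) and kept without obese pig 3. Counts over this list were 1 higher of 23 tested in smooth muscle-like, 1 of 19 in fibroblast-like, 1 higher and 1 lower of 14 in endothelial-like and 2 higher of 10 in macrophage-like nuclei. HMCN1, the most abundant of the list in smooth muscle-like nuclei, stood at 168, 648 and 666 CPM against 2360 and 1560 CPM and did not pass (-2.05, SE 0.466, edgeR adjusted p = 0.114). SPARCL1 there gave 0.17 (edgeR adjusted p = 0.812), and in fibroblast-like nuclei FBLN5 gave -0.41 (edgeR adjusted p = 0.533) and HMCN1 -0.69 (edgeR adjusted p = 0.425).

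Of the immediate early and heat shock list, 1 of 21 tested genes was higher in smooth muscle-like nuclei, 4 of 17 in fibroblast-like, 9 of 18 in endothelial-like and 0 of 16 in macrophage-like nuclei, with none lower, and the median log2 fold changes were 1.16, 1.79, 1.22 and -0.08. DUSP1, a phosphatase that ends MAP kinase signalling, was the gene called in smooth muscle-like nuclei (2.92, SE 0.430, edgeR adjusted p = 0.0456), and its edgeR adjusted p was 0.154 without obese pig 1, 0.238 without control pig 1 and 0.161 without control pig 2. FOS and EGR1, the most abundant of the list there, gave 1.72 and 0.85 (edgeR adjusted p = 0.177 and 0.467). In fibroblast-like nuclei ZFP36, ATF3, FOS and EGR1 rose by 2.66, 2.61, 1.97 and 1.81 (edgeR adjusted p = 0.0359 for each), and FOSB gave 2.04 (edgeR adjusted p = 0.112). All 4 calls were lost without obese pig 1 (edgeR adjusted p = 0.204 for each) and without control pig 1 (0.274 to 0.361), and all but that of ZFP36 without control pig 2 (0.0526 to 0.272). In endothelial-like nuclei ATF3 (3.37), FOSB (2.85), EGR1 (2.77), FOS (2.64), ZFP36 (2.40), BTG2 (1.73), IER2 (1.61), JUNB (1.53) and DUSP1 (1.20) rose, with edgeR adjusted p from 0.00447 to 0.0489. Over all lists, 20 genes were called in endothelial-like nuclei, and 7 of them stayed called without control pig 1, 7 without control pig 2, and 14, 15 and 13 without obese pigs 1, 2 and 3. ADAMTS5, ATF3, EGR1 and FOS kept the call under each of these 5 omissions.

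The genes most like each of the 8 were found by Pearson correlation of log2(CPM + 1) over 35 sums of 7 classes and 5 pigs, among 5952 genes. The sums share libraries and classes, so the values are a description. POSTN was most like ADGRD1 (r = 0.83), PDGFRA (0.82), a marker of fibroblasts, and ITGBL1 (0.82). COMP was most like BGN (0.79), PKD1 (0.76) and ADGRD1 (0.74). TNC was most like PLXDC1 (0.79), MKX (0.78) and SLIT3 (0.76), and FN1 like CRIM1 (0.84), PLS3 (0.82) and ARHGAP29 (0.81). THBS1 was most like ARF4 (0.79), CEBPD (0.77) and ABHD5 (0.77), CD47 like CCDC69 (0.85), LNPEP (0.82) and KCNAB2 (0.79), VCAN like SLC40A1 (0.70), SULF2 (0.69) and CSAD (0.68), and THBS2 like PLAUR (0.74), ANKRD54 (0.72) and PIWIL4 (0.71).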

How the data were processed

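Gel bead single-nucleus libraries were deposited by the authors as raw UMI counts per gene and barcode. Alignment was to pig build Sscrofa11, with Cell Ranger 5.0 per the submitters' processing notes and 7.1.0 per the file headers, and Seurat 5.0 is named for later steps. Values were checked to be whole numbers.

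Of 45580 barcodes, 77 fell below 300 genes or above 5% of UMIs from mitochondrial genes and were removed. Scrublet's automatic threshold marked 2 doublets, so the 3517 highest scores, up to 0.8% per 1000 barcodes, were removed instead. Using 3000 variable genes, 30 components and 20 neighbours, nuclei were clustered with leidenalg 0.10.2 (resolution 1.0) in scanpy 1.11.5. A class name needed at least 3 markers. Counts were added up by pig for each class whose smallest pig had 20 nuclei or more. The sums were tested with edgeR 4.0.16 in R 4.3.3 (quasi-likelihood F-test, TMM, filterByExpr, Benjamini-Hochberg over all genes tested, called under 0.05). Class by diet interactions had the pig as a block. The test was checked on simulated counts. Promoter stretches and positions come from RefSeq on Sscrofa11.1, since the labels name Sscrofa11 without a patch. Matching genes by symbol found 17508 symbols in the files and 223 more in a table of identifiers.

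Alternatives were DESeq2 1.42.0 size factors and its Wald test, limma 3.58.1 (voom), library size alone, no filter, a replicate block, leaving out each pig, no doublet removal, clustering without the 8 genes and resolution 0.5. The 8 genes and all gene lists were chosen with earlier results of these data known. Named genes were the 8, every listed gene called in a main class, the 2 of highest CPM per list in smooth muscle-like and fibroblast-like nuclei, and the 3 most similar genes each. Nothing states that more than 1 piece per pig was taken. With 3 against 2 pigs a permutation p that is doubled to cover both directions cannot fall below 0.2, and no permutation test was used. Intervals and the floor of 3 counts cover counting error only.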

Additional observations from a re-analysis of the deposited data

Results flagged for a closer look

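The diet effect on FN1 differed between cell classes by a test of the difference itself: its log2 fold change in endothelial-like nuclei minus that in smooth muscle-like nuclei was -1.34 (SE 0.366, edgeR adjusted p = 0.0106). FN1 was higher in 3 of 3 obese pigs than in either control pig in smooth muscle-like nuclei, as were 17.6% of genes, and lower in 3 of 3 in endothelial-like nuclei, as were 25.2% of genes. The call was lost without obese pig 3 (-0.79, edgeR adjusted p = 0.302), without control pig 1 (-1.42, 0.138) and without control pig 2 (-1.12, 0.559). Within endothelial-like clusters 14 and 15 the log2 fold changes were 0.77 and 0.44, opposite in sign to the class, and neither passed the test. Cluster 15, the FN1-rich one, held 24.7% to 30.3% of the class in obese pigs and 64.8% to 80.5% in control pigs. The part of this make-up in the FN1 result was not tested.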

How the results depend on the processing

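THBS1 was called under each of the alternatives that kept all pigs in smooth muscle-like (log2 fold change 2.94 to 3.17), fibroblast-like (2.1 to 2.7) and endothelial-like nuclei (2.28 to 2.98). Over 46 results of a gene within a class or cluster, those alternatives gave 388 values, of which 367 kept direction and side of the threshold, 10 became called and 11 turned sign. Leaving out a pig gave 229 values, of which 198 kept both, 12 lost the call, 3 gained it and 16 turned sign. The causes were not tested, and the controls number 2, so a fit without one assumes that the lone pig varies like the others.

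Counts of the 8 genes called moved as follows. Without a count filter there was 1 in all nuclei and in macrophage-like, pericyte-like, Schwann cell-like and T or NK cell-like nuclei, 1 between smooth muscle-like and fibroblast-like nuclei (TNC), 2 between fibroblast-like and endothelial-like nuclei (VCAN and FN1) and 15 in place of 4 over single clusters. The DESeq2 Wald test gave 1 in all nuclei, T or NK cell-like and macrophage-like nuclei, and 9 over clusters. Leaving out a pig gave 0 to 1 in all nuclei, smooth muscle-like, fibroblast-like, endothelial-like and macrophage-like nuclei and between smooth muscle-like and endothelial-like nuclei, and 3 to 5 over clusters. Over all genes, 43 were called in smooth muscle-like nuclei, but 853 without a filter, 539 by the DESeq2 Wald test, 79 by library size alone, 16 by limma-voom and 13 at the lower clustering resolution, and 2, 75 and 123 without obese pigs 1, 2 and 3 and 2 without either control pig. In macrophage-like nuclei 56 were called, but 0 by limma-voom (508 at an unadjusted p under 0.05) and 0 with the replicate block (616).

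The labels do not say whether the replicate numbers pair the pigs. Deviations of same-numbered pigs correlated at 0.0442 to 0.0916 for number 1 and -0.0639 to -0.0100 for number 2. With 2 control pigs their deviations mirror each other, so these values cannot decide whether the numbers pair the pigs. With the replicate block there was 1 gene of the 8 called in T or NK cell-like nuclei, 1 in all nuclei, 2 in fibroblast-like nuclei and 7 over clusters, and 278 genes in all were called in smooth muscle-like nuclei. Signs turned with the block for THBS2 in all nuclei (-0.21) and fibroblast-like nuclei (-0.07), TNC in fibroblast-like (-0.24) and endothelial-like nuclei (-0.02), CD47 in endothelial-like nuclei (0.07) and FN1 in macrophage-like nuclei (-0.12).

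Other signs turned without doublet removal for TNC in fibroblast-like (-0.09), endothelial-like (-0.43) and macrophage-like nuclei (0.04), with DESeq2's size factors for the FN1 difference between smooth muscle-like and macrophage-like nuclei (-0.14), and, by settings chosen after seeing the data, for THBS2 with unnamed wall clusters added (0.09) and POSTN in cluster 7 alone (0.03). No unnamed cluster had smooth muscle as its highest marker class, so adding such clusters gave no value.

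Leaving out a pig turned the sign of uncalled values. In all nuclei the ranges were -0.15 to 0.44 for THBS2, -1.64 to 0.09 for COMP, -0.9 to 0.2 for TNC and -0.34 to 0.05 for POSTN. In smooth muscle-like nuclei they were -0.24 to 0.11 for CD47 and -0.02 to 0.21 for VCAN. In fibroblast-like nuclei they were -0.09 to 0.6 for THBS2, -1.66 to 0.8 for COMP, -0.25 to 0.7 for TNC and -0.59 to 0.01 for POSTN. In endothelial-like nuclei they were -0.12 to 0.07 for CD47 and -0.05 to 0.45 for TNC. Differences from smooth muscle-like nuclei ran from -0.18 to 0.34 (FN1, fibroblast-like), -0.19 to 0.6 (FN1, macrophage-like), -1.36 to 0.01 (THBS1, fibroblast-like), -1.03 to 0.32 (THBS1, endothelial-like) and -0.56 to 1.86 (THBS1, macrophage-like).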
